A study of Mus musculus with 6 samples.

Results

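Transcripts of 10 genes for iron storage, iron transport and heme breakdown were followed in sorted mouse microglia, the resident macrophages of the brain. The genes were chosen by name: Fth1, Ftl1 and Ncoa4 for storage, Slc40a1 and Cp for export, Tfrc, Slc11a2 and Slc11a1 for import, and Hmox1 and Blvrb for heme breakdown. All 10 were found among the 49585 genes listed, and all 10 passed the filter on low counts that left 11041 genes for testing, Cp through its IRF8KO libraries alone. Compared were 3 samples of wild-type (WT) microglia and 3 samples labelled IRF8KO, a knockout of the transcription factor IRF8. The labels give all mice as male and 3 months old, and describe isolation from each brain without enzymes, sorting into TRIzol, and full-length cDNA made from polyadenylated RNA. They name neither the Irf8 allele, the strain nor the markers used for sorting.

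Iron enters macrophages bound to transferrin through the transferrin receptor, or with engulfed red cells and debris whose heme is opened by heme oxygenase. Iron that is not used is caged in ferritin, a shell of heavy and light chains, or leaves the cell through ferroportin, helped by a ferroxidase such as ceruloplasmin. Iron regulatory proteins bind hairpins called iron-responsive elements. In a 5′ UTR they block translation, and in the 3′ UTR of the transferrin receptor they protect the transcript from decay. Counts of transcripts do not show the translational side of this control.

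The hairpins are shown because they join storage, export and import genes into one control circuit. The search asked, in transcripts of coding genes, for the loop CAGTGN with a bulged C ahead of it, 5 bases away, the 5 bases on either side of the loop paired, and 3 further pairs below the bulge, G-T pairs allowed. Capitals mark the loop, and all sequences are transcript strand, written with T, from GENCODE M21 (GRCm38), which also gives the gene positions below.
Fth1, 5′ UTR, exon 2 of 5 of the transcript Fth1-203, chr19:9982732-9982761, plus strand: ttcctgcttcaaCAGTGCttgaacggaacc
Ftl1, 5′ UTR, exon 1 of 4, chr7:45459778-45459807, minus strand: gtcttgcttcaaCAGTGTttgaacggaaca
Slc40a1, 5′ UTR, exon 1 of 8, chr1:45925464-45925493, minus strand: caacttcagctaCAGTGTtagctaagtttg
Tfrc, 3′ UTR, exon 19 of 19, chr16:32631219-32631248, plus strand: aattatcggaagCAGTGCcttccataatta
Tfrc held 4 such matches, all in its last exon. Of 21901 coding genes, 7 (0.0320%) had a match in a 5′ UTR, among them Fth1, Ftl1 and Slc40a1. Another 7 had one in a 3′ UTR. The other 6 of the 10 genes had none by these letters, which says nothing of variant hairpins.

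Depth was 3658917 to 10859529 gene counts in WT and 8994860 to 11098363 in IRF8KO. Levels below are counts per 1000000 (CPM) on TMM-scaled library sizes, which allow for the 25.5% to 33.7% of counts that Apoe took in IRF8KO. The targeted gene checked no label: Irf8 had 795, 851 and 1403 CPM in WT replicates 1, 2 and 3 and 743, 650 and 850 CPM in IRF8KO replicates 1, 2 and 3. Its log2 fold change was −0.44 (SE 0.33; edgeR, adjusted p = 0.368), and −0.90 (adjusted p = 0.0076) with library size alone, the one of 17 alternatives that called it, so every direction here rests on the libraries labelled IRF8KO. Of 14 microglial markers, all 14 passed the filter, with summed levels of 66665 to 126212 CPM in WT and 56500 to 80720 CPM in IRF8KO, but 4 of them were lower and 1 higher by the test used below. Cx3cr1 was 4.47-fold, P2ry12 17.4-fold and Aif1 3.99-fold lower, Sall1 had 0 counts in all IRF8KO libraries, and Fcrls was 2.54-fold higher. The part of this shift in the iron genes was not tested. WT replicate 3 and IRF8KO replicate 2 stood apart from their groups, as described for the 10 genes below, and IRF8KO replicate 2 also held 121 CPM of the neutrophil gene S100a8, against at most 0.803 in the others.

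In IRF8KO, 4 transcripts rose: both ferritin chains, the ferroxidase Cp and the biliverdin reductase Blvrb. They were 4 of 10, with Cp tested only through the IRF8KO libraries where it was high, against 19.1% of all tested genes called in either direction and 9.64% called higher, in edgeR's quasi-likelihood test at a p under 0.05 after Benjamini-Hochberg adjustment over all tested genes. Every adjusted p below is from that test unless another is named. With 10 counts required in every library, Cp and Tfrc dropped out and 3 of 8 were called, against 23.7% of all genes that passed it. None of the 10 was called lower, against 9.46% of all tested genes, and 6 were not called. The groups did not overlap for the same 4 genes, against 37.9% of all tested genes, 20% with IRF8KO higher and 17.9% with it lower. The median log2 fold change of the 10 genes was −0.01, beside −0.11 over all tested genes. In bulk samples, a change in the cells present and a change in RNA per cell cannot be told apart.

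**Figure D1:**
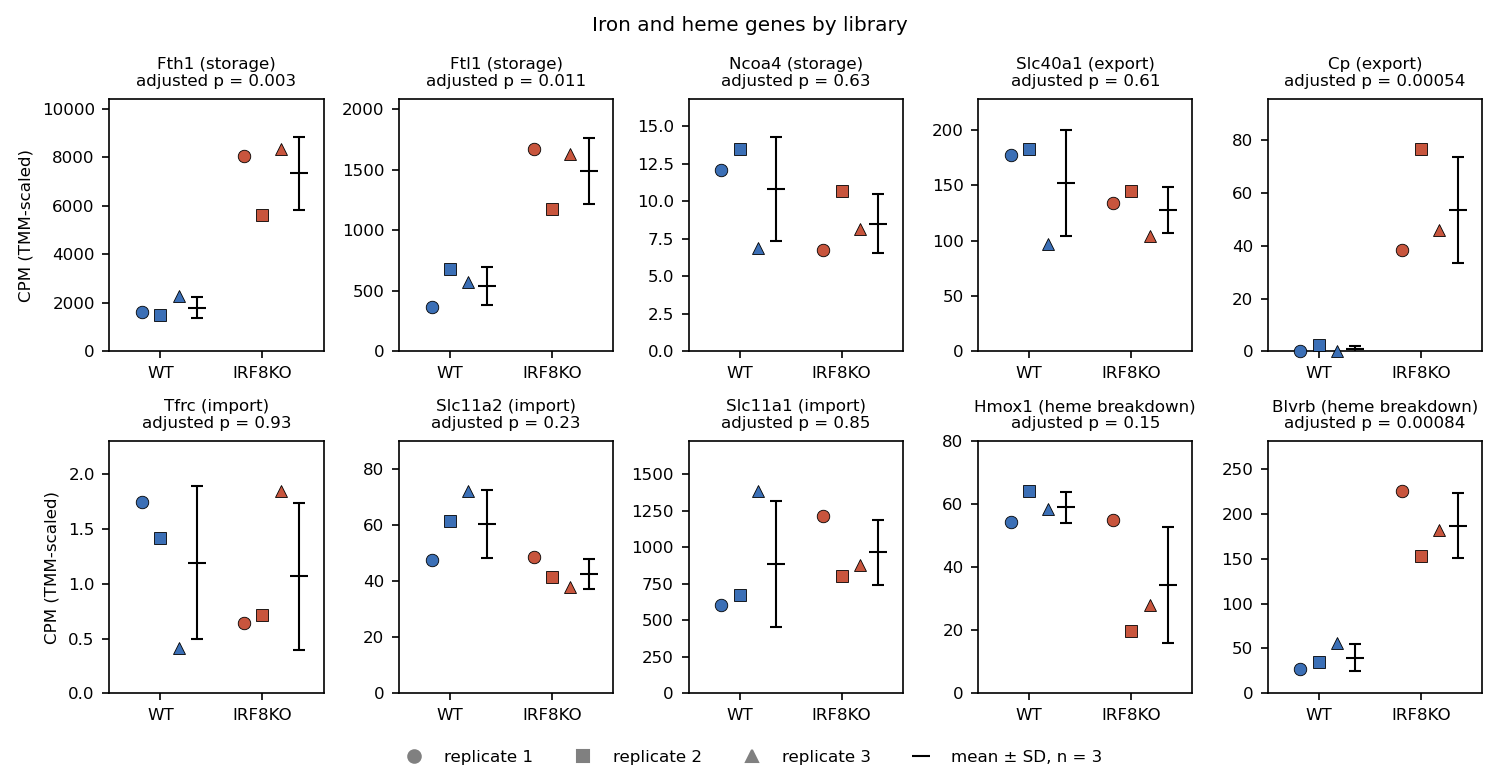
Level of each of the 10 genes in CPM on a linear axis from 0, by genotype, with 1 symbol per library (circle, square and triangle for replicates 1, 2 and 3) and a bar for the mean ± SD (n = 3). Fth1, Ftl1, Cp and Blvrb lie higher in all 3 IRF8KO libraries than in any WT library, and the groups overlap for the other 6 genes.

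Ferritin transcripts, already among the most abundant in WT, were higher still in IRF8KO. Fth1 (ENSMUSG00000024661, chr19:9980598-9985098, plus strand) encodes the heavy chain, which oxidises iron so that it can enter the shell. It had 1622, 1480 and 2296 CPM in WT replicates 1, 2 and 3, and 8051, 5618 and 8318 CPM in IRF8KO replicates 1, 2 and 3. The lowest IRF8KO library lay well above the highest WT library. The rise was 4.07-fold (log2 2.03, SE 0.37; edgeR, adjusted p = 0.0030). As a share of unscaled gene counts, Fth1 took 0.192% to 0.228% in WT and 0.558% to 0.691% in IRF8KO. It was called in all 17 alternative fits.

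Ftl1 (ENSMUSG00000050708, chr7:45457944-45459884, minus strand) encodes the light chain, which helps the iron core form inside the shell. It had 368, 678 and 572 CPM in WT replicates 1, 2 and 3, and 1667, 1178 and 1627 CPM in IRF8KO replicates 1, 2 and 3. The groups did not overlap, and within IRF8KO replicate 2 was again lowest. The rise was 2.76-fold (log2 1.47, SE 0.34; edgeR, adjusted p = 0.011). The call was lost without WT replicate 1, IRF8KO replicate 1 or IRF8KO replicate 3, with adjusted p of 0.052, 0.054 and 0.074 (edgeR). Ftl1 shares 34.6% of its exonic length with other annotated genes and has processed copies elsewhere, of which Ftl2-ps took 317 to 2380 counts per library. Summed with 3 copies, Ftl1 had a log2 fold change of 1.49 (edgeR, adjusted p = 0.0096).

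The balance of heavy to light chain transcripts, which needs no library scaling, was compared per exonic length. The Fth1 to Ftl1 ratio was 1.70, 0.843 and 1.55 in WT replicates 1, 2 and 3, and 1.87, 1.84 and 1.97 in IRF8KO replicates 1, 2 and 3. All IRF8KO ratios were above all WT ratios, but the gap between WT replicate 1 and the lowest IRF8KO library was smaller than the WT spread (1.37 ± 0.459 against 1.89 ± 0.0704, mean ± SD, n = 3). With the principal transcripts' lengths of 1494 and 968 bases the means were 2.29 and 3.18. The absolute ratio therefore depends on the transcript model.

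Ncoa4 (ENSMUSG00000056234, chr14:32159865-32179855, plus strand), the receptor that delivers ferritin to lysosomes for iron release, did not follow ferritin. It had 12.1, 13.5 and 6.89 CPM in WT replicates 1, 2 and 3, and 6.74, 10.7 and 8.13 CPM in IRF8KO replicates 1, 2 and 3. The groups overlapped, and the log2 fold change was −0.34 (SE 0.45; edgeR, adjusted p = 0.635).

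Of the export genes, the ferroxidase was called and the iron transporter was not. Slc40a1 (ENSMUSG00000025993, chr1:45908068-45926523, minus strand) encodes ferroportin, the known iron exporter of mammalian cells. It had 178, 183 and 97.0 CPM in WT replicates 1, 2 and 3, and 134, 145 and 104 CPM in IRF8KO replicates 1, 2 and 3. WT replicate 3 was the lowest of all 6 libraries, and the groups overlapped. With a log2 fold change of −0.25 (SE 0.31; edgeR, adjusted p = 0.607) the gene was not called, here or in any of the 17 alternatives.

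Cp (ENSMUSG00000003617, chr3:19957054-20009145, plus strand) encodes ceruloplasmin, a copper enzyme that oxidises iron as it leaves the cell. Its counts were 1, 33 and 0 in WT replicates 1, 2 and 3, and 239, 851 and 424 in IRF8KO replicates 1, 2 and 3. In CPM this was 0.195, 2.34 and 0 against 38.4, 76.4 and 46.0, so the transcript was near the floor of 3 counts in 2 WT libraries and well above it in all IRF8KO libraries. The fitted fold was 50.5 (log2 5.66, SE 0.79; edgeR, adjusted p = 5.4e-04). The size is uncertain, since it was log2 9.10 without WT replicate 2 and 3.97 and 3.63 in the stranded columns. Those columns gave WT counts of 14, 35 and 1 or 12, 40 and 8, where 1.13% of Cp's exonic length overlaps Hps3 on the genome. Cp was called in all 16 alternatives that tested it.

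Summed markers of cells that also make Cp moved with the groups. Summed astrocyte markers were 8.92 to 90.0 CPM in WT and 115 to 196 CPM in IRF8KO, with 4 of 5 tested genes of the list higher, against 9.64% of all tested genes, and Aqp4 and Gja1 at or near 0 in all libraries. Summed choroid plexus markers were 0.195 to 2.05 CPM in WT and 17.1 to 47.9 CPM in IRF8KO, mostly Ttr, with 2 of 3 tested genes of the list higher and Kl, Clic6 and Aqp1 at or near 0. Of these called markers, Slc1a2 and S100b of astrocytes and Ttr and Folr1 of choroid plexus had few counts in WT. Gfap of astrocytes had 16, 6 and 40 counts in WT replicates 1, 2 and 3. All of these genes passed the filter only through the IRF8KO libraries where they were high, so their calls support nothing. Most of each astrocyte sum was Aldoc, the tested gene of the list that was not called, with 78.4 of the 90.0 CPM in WT replicate 3, which had 0 counts of Cp. IRF8KO replicate 2, with the most Cp, had the highest choroid plexus sum, and IRF8KO replicate 1, with the least Cp of its group, had the highest astrocyte sum. Neuronal markers moved with the groups as well, from 0.637 to 8.96 CPM summed in WT to 21.1 to 26.4 CPM in IRF8KO, with Syt1 and Rbfox3 called higher through the same filter. The part of any of these cells in the Cp counts was not tested.

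None of the 3 import genes was called. Tfrc (ENSMUSG00000022797, chr16:32608920-32632794, plus strand), the receptor for transferrin, was close to the detection limit with 9, 20 and 3 counts in WT replicates 1, 2 and 3, and 4, 8 and 17 counts in IRF8KO replicates 1, 2 and 3. At this depth no difference was detectable (log2 fold change −0.14, SE 0.90; edgeR, adjusted p = 0.933). Per exonic length, Slc40a1 exceeded Tfrc 69.8-fold to 161-fold in WT and 38.9-fold to 143-fold in IRF8KO, a ratio that rests on those few Tfrc counts.

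Slc11a2 (ENSMUSG00000023030, chr15:100387898-100425072, minus strand) encodes DMT1, which moves iron out of endosomes after transferrin uptake. It had 47.7, 61.5 and 72.1 CPM in WT replicates 1, 2 and 3, and 48.6, 41.5 and 38.1 CPM in IRF8KO replicates 1, 2 and 3. The groups overlapped by a single pair, WT replicate 1 and IRF8KO replicate 1. The log2 fold change was −0.50 (SE 0.28; edgeR, adjusted p = 0.230). It was called lower only with scaling by library size alone (−0.98, adjusted p = 0.016), which also moved the median of all tested genes to −0.61.

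Slc11a1 (ENSMUSG00000026177, chr1:74375195-74386062, plus strand) encodes NRAMP1, a metal transporter of phagosomes that serves in defence against intracellular bacteria. It was abundant in both groups, with 603, 674 and 1381 CPM in WT replicates 1, 2 and 3, and 1216, 800 and 877 CPM in IRF8KO replicates 1, 2 and 3. WT replicate 3 was the highest of all libraries, and the other 2 WT libraries were the lowest. The log2 fold change was 0.12 (SE 0.37; edgeR, adjusted p = 0.851). Without WT replicate 3 it was 0.62 and was called higher (adjusted p = 0.039), and with library size alone its sign turned to −0.32.

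The 2 heme breakdown genes had fold changes of opposite sign, of which 1 was called. Hmox1 (ENSMUSG00000005413, chr8:75093621-75100589, plus strand) encodes the inducible heme oxygenase, which opens heme and releases iron and biliverdin. It had 54.3, 64.0 and 58.5 CPM in WT replicates 1, 2 and 3, and 54.9, 19.9 and 28.1 CPM in IRF8KO replicates 1, 2 and 3. IRF8KO replicate 1 lay within the WT range and the other 2 lay below it. Its log2 fold change was −0.79 (SE 0.36; edgeR, adjusted p = 0.150), which missed the threshold. It was called lower without IRF8KO replicate 1 (−1.28, adjusted p = 0.044) and with library size alone (−1.38, adjusted p = 0.016).

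Blvrb (ENSMUSG00000040466, chr7:27447978-27466144, plus strand) encodes biliverdin reductase B, an enzyme that reduces flavins and biliverdin. It had 27.6, 34.6 and 56.5 CPM in WT replicates 1, 2 and 3, and 225, 153 and 182 CPM in IRF8KO replicates 1, 2 and 3. Every IRF8KO library was above every WT library. The rise was 4.71-fold (log2 2.24, SE 0.33; edgeR, adjusted p = 8.4e-04), and it was called in all 17 alternatives. Blvrb is abundant in red cells, and summed red-cell markers were 0, 0 and 57.6 CPM in WT replicates 1, 2 and 3 and 53.8, 96.5 and 437 CPM in IRF8KO replicates 1, 2 and 3, with Slc4a1 at 0 in all. Beside these sums, Blvrb had 27.6, 34.6 and 56.5 CPM in WT and 225, 153 and 182 CPM in IRF8KO, in the same order. The part of red cells in the Blvrb counts was not tested.

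**Figure D2:**
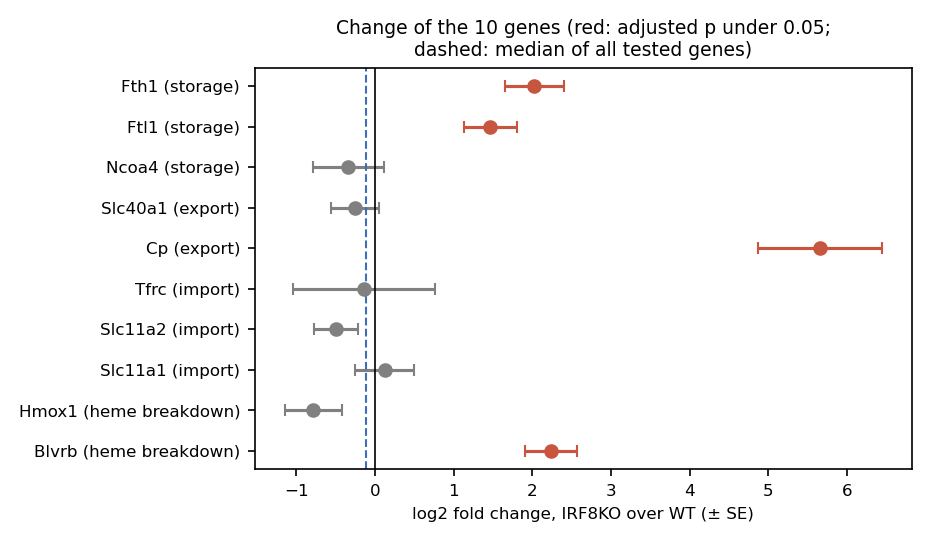
Log2 fold change of each gene, IRF8KO over WT, with bars of 1 SE from the edgeR fit, red where the adjusted p was under 0.05. The dashed line is the median of all tested genes, −0.11. To its right 4 genes lie beyond their error bars, with Cp at 5.66. Hmox1 and Slc11a2, which were not called, lie to its left beyond theirs.

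Because IRF8 binds DNA with PU.1 at a composite site, the 250 bases before the starts of these genes were searched, on both strands, for GGAA and GAAA with 2 bases between them in RefSeq promoters (GRCm38.p6). Of 13 promoters found for 7 of the genes, 1 held a match, at the second start of Blvrb, as did 2.30% of all 32851 promoters. The site is shown with the match in capitals, 216 to 207 bases before that start.
Blvrb, chr7:27452192-27452221, plus strand: gtgggtcctgGGAATGGAAAccagatcttc
The interferon-stimulated response element core, GAAA repeated after 2 bases, was found in 1 of the 13, a promoter of Ncoa4, against 2.98% of all promoters. The antioxidant response element core, TGAC and GC with 3 bases between them, was also found in 1, at Ncoa4, against 10.2%. A C/EBP palindrome, TTGC and AA with 2 bases between them, was found in 2, at Fth1 and Cp, against 9.56%. A PU.1 core, GAGGAA followed by GT, and an M-box, TCA and GTGA with 1 base between them, were found in none of the 13, against 2.44% and 3.45%. The first pair of motifs can overlap, as can both PU.1 motifs. A match of letters is not a binding site, and none here says nothing of sites elsewhere.

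Levels of the 10 genes spanned a wide range per kilobase of exons. In WT, Fth1 led with 519 ± 126 CPM per kilobase (RPKM), followed by Ftl1 (403 ± 118) and Slc11a1 (239 ± 116), and in every WT library Fth1 and Ftl1 were both above Slc11a1 (n = 3). Fth1 and Ftl1 did not differ beyond their spread in WT, and Ftl1 was the higher in replicate 2. Hmox1 followed at 33.6 ± 2.79 RPKM. Slc40a1 (16.9 ± 5.34) and Blvrb (14.2 ± 5.42) lay within their spread of each other. Slc11a2 (9.51 ± 1.93), Ncoa4 (1.15 ± 0.369), Tfrc (0.193 ± 0.113) and Cp (0.0882 ± 0.136) came last. In IRF8KO, Fth1 at 2113 ± 429 RPKM stood clear of Ftl1 at 1112 ± 203 RPKM, and Blvrb moved up to the fourth place at 67.1 ± 12.9 RPKM. Fth1 and Ftl1 were above 99.5% and 99.4% of tested genes in WT. Exonic length counts every annotated exon, and with principal transcripts instead Hmox1 fell to the sixth place in WT.

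Within each group the genes split by library. WT replicate 3 was the highest WT library for Fth1, Slc11a1, Slc11a2 and Blvrb and the lowest for Ncoa4, Slc40a1, Cp and Tfrc. IRF8KO replicate 2 was the lowest IRF8KO library for Fth1, Ftl1, Slc11a1, Hmox1 and Blvrb and the highest for Ncoa4, Slc40a1 and Cp. These 2 groups of genes also differ in base composition: the 4 genes that were lowest in WT replicate 3 have 39.8% to 43.8% GC in their principal transcripts, and the other 6 have 52.2% to 58.1%. Spearman's correlation between GC and the log2 ratio of WT replicate 3 to the other WT libraries was 0.83 over the 10 genes, and −0.38 for IRF8KO replicate 2 against its group. The log2 fold change between genotypes had a correlation with GC of 0.21 over the 10 genes and 0.31 over 10339 tested coding genes. These points share libraries and are given as a description. Without both libraries, 5 of the 10 genes were called, all higher: Fth1, Ftl1, Cp, Blvrb and Slc11a1. That fit called 45.5% of all genes it tested in either direction and 23.3% higher. The 5 of 10 is near the first share and above the second. The 2 libraries were picked after the data were seen, and no set was tested.

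**Figure D3:**
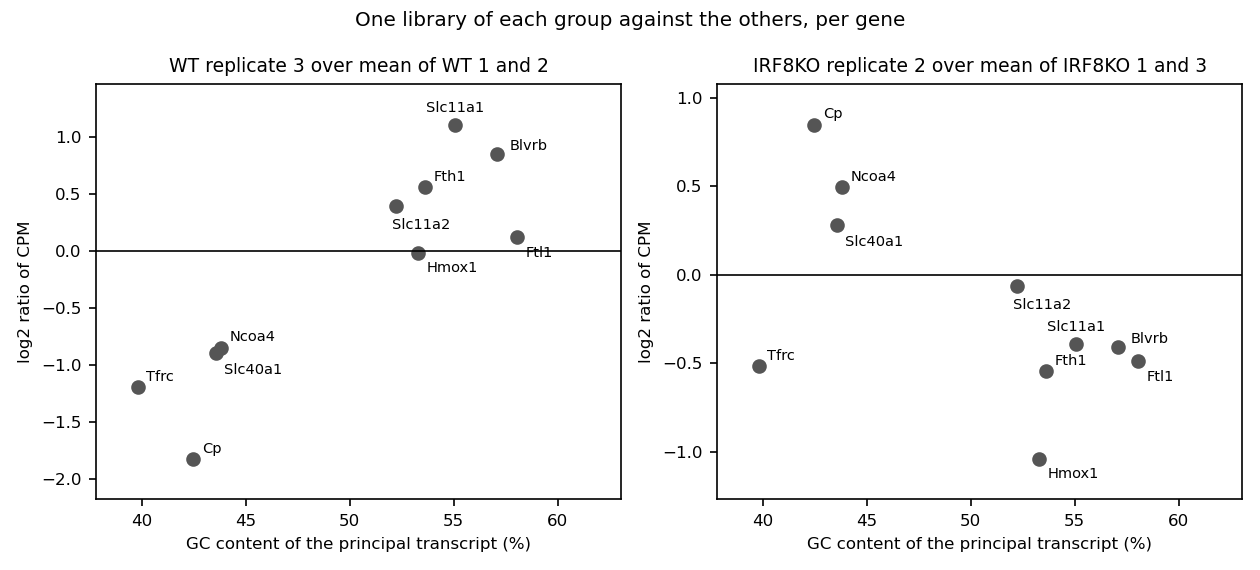
Log2 ratio of CPM (0.5 CPM added) in WT replicate 3 over the mean of WT replicates 1 and 2 (left) and in IRF8KO replicate 2 over the mean of IRF8KO replicates 1 and 3 (right), against the GC content in percent of each gene's principal transcript, 1 point per gene. Cp, Tfrc, Ncoa4 and Slc40a1, at 43.8% GC or less, lie below 0 on the left, and 3 of them lie above 0 on the right.

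Markers of border-associated macrophages, which neighbour microglia at the brain's surfaces, moved with the ferritin and Blvrb values. Their summed level was 612 to 838 CPM in WT and 4149 to 5438 CPM in IRF8KO, mostly Stab1 in WT (602 to 823 CPM), which was 2.82-fold higher in IRF8KO. Of 12 genes in the list 9 were tested and all 9 were higher, against 9.64% of all tested genes. Of these, Cd163 and F13a1 had 0 counts in WT. Ms4a7 had 6, 9 and 7 counts and Clec4n 1, 5 and 22 in WT replicates 1, 2 and 3. These genes were tested only through the IRF8KO libraries where they were high, so their calls support nothing. The defining markers Lyve1 and Cd209f had 0 counts in all libraries and Folr2 was near 0, while Pf4 reached 1536 to 2171 CPM in IRF8KO. The part of such cells in the iron genes was not tested.

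Around these 10 genes, 78 others of iron and heme handling were grouped in 7 lists, of which 59 genes were tested. Calls lay on both sides: 8 were higher, 6 lower and 45 not called, 23.7% called against 19.1% of all genes, with Cd163 tested only through its IRF8KO libraries. Their median log2 fold change was 0.29. Leaving out 1 library moved these 14 calls along with those of all genes. They were 4 without IRF8KO replicate 1 (6.67%, against 9.64% of all genes) or replicate 3 (6.78%, against 7.95%), and 30 without WT replicate 3 (50.8%, against 33.5%). They were 8 and 5 without WT replicates 1 and 2 (13.3% and 8.33%, against 11.4% and 10.4%).

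In the list of iron sensing, 1 of 4 tested genes was lower and none higher. It was Aco1, the cytosolic aconitase that becomes iron regulatory protein 1 when its iron-sulphur cluster is lost. Aco1 fell from 52.1 ± 5.78 to 25.3 ± 1.32 CPM (log2 −1.04, adjusted p = 0.019). The call was lost without WT replicate 1 or 2 or any 1 IRF8KO library, with adjusted p of 0.0529 to 0.0998. Hfe, a partner of transferrin receptors, had 393 ± 180 and 695 ± 134 CPM and was not called (adjusted p = 0.130), though it was without WT replicate 3 (log2 1.28, adjusted p = 0.0016), also with IRF8KO replicate 2 left out (1.46, adjusted p = 4.4e-04), and with library size without Apoe (0.87, adjusted p = 0.0124). Alas2 and Atrx, which also had a match in a 5′ UTR, were not called, with log2 fold changes of 1.96 and −0.34 (adjusted p = 0.351 and 0.730).

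Of 8 tested genes of other iron transport, 1 was higher and 1 lower. Trf, which encodes transferrin, rose from 22.9 ± 7.40 to 66.4 ± 16.8 CPM (log2 1.53, adjusted p = 0.0088), a call lost without IRF8KO replicate 1 or 3 (adjusted p = 0.0510 and 0.0563). It shares 63.5% of its exonic length with other genes, and oligodendrocytes make it. Summed oligodendrocyte markers were 285 to 700 CPM in WT and 484 to 692 CPM in IRF8KO, but the genes differed. Mbp was 44.0 to 274 CPM in WT and 365 to 545 CPM in IRF8KO (not called, adjusted p = 0.056), while Cnp was called 4.11-fold lower. The part of oligodendrocytes in the Trf counts was not tested. Slc22a17, a receptor for the siderophore carrier lipocalin 2, fell from 116 ± 39.1 to 57.2 ± 7.93 CPM (log2 −1.02, adjusted p = 0.036). That call was lost without WT replicate 2 or any 1 IRF8KO library and with DESeq2 size factors, with adjusted p of 0.0525 to 0.177. The iron chaperone Pcbp1 and the lysosomal channel Mcoln1 were not called, with log2 fold changes of −0.09 and −0.29 (adjusted p = 0.848 and 0.503), though Mcoln1 was called lower with library size alone (−0.80, adjusted p = 0.0087).

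Of 13 tested mitochondrial genes, 1 was higher and 1 lower. Glrx5, which passes on iron-sulphur clusters, rose from 48.6 ± 20.6 to 121 ± 12.01 CPM (log2 1.31, adjusted p = 0.015), a call lost without WT replicate 1 or 2 or IRF8KO replicate 1 or 3 (adjusted p of 0.0654 to 0.0822). Abcb10, a transporter of the inner membrane that supports heme synthesis, fell from 20.7 ± 7.76 to 3.03 ± 1.86 CPM (log2 −2.79, adjusted p = 0.0039). Iscu, the cluster scaffold, had 124 ± 23.1 and 201 ± 33.9 CPM and was not called (adjusted p = 0.104), but was in 4 of 17 alternatives. These were library size without Apoe (adjusted p = 0.0165), the second stranded column (0.0423), without WT replicate 3 (0.00686) and without both WT replicate 3 and IRF8KO replicate 2 (0.00139). In heme synthesis, 1 of 9 was higher and 1 lower. Alas1, the first enzyme of the pathway, rose from 136 ± 27.1 to 253 ± 39.4 CPM (log2 0.90, adjusted p = 0.044), and Fech, which inserts the iron, fell from 68.4 ± 11.1 to 34.9 ± 3.84 CPM (log2 −0.97, adjusted p = 0.028). Alas1 lost its call in 10 of 17 alternatives, among them the replicate block (adjusted p = 0.0648) and 5 without 1 library (any but WT replicate 3), with adjusted p of 0.0542 to 0.183. Fech lost it in 6, among them without WT replicate 1 or 2 or IRF8KO replicate 1 or 3, with adjusted p of 0.0550 to 0.138. Ppox was not called (log2 0.29).

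Of 7 tested genes of heme uptake and transport, 2 were higher, of which Cd163 was tested only through the IRF8KO libraries where it was high. Lrp1, a receptor for hemopexin-bound heme among many ligands, rose from 441 ± 23.6 to 824 ± 74.1 CPM (log2 0.90, adjusted p = 0.042), a call lost in 8 of 17 alternatives, among them the replicate block (adjusted p = 0.0926) and 5 without 1 library (any but WT replicate 3), with adjusted p of 0.0832 to 0.197. Cd163, the receptor for haptoglobin-bound hemoglobin and also in the border-associated macrophage list, had 0 counts in WT and 262 in IRF8KO, at least 87.1-fold higher against a floor of 3 counts over the WT group. Slc46a1, a heme and folate carrier, was not called (539 ± 338 and 332 ± 61.5 CPM) except as lower with library size alone (−1.10, adjusted p = 0.0185). Of the other 3 heme breakdown genes, Blvra, the main biliverdin reductase, rose from 39.6 ± 3.78 to 79.8 ± 9.38 CPM (log2 1.01, adjusted p = 0.020). That call was lost without WT replicate 1 or 2 or IRF8KO replicate 1 or 3 and with library size alone, with adjusted p of 0.0759 to 0.121. Hmox2 and Por, the constitutive heme oxygenase and its electron donor, were not called (log2 0.29 and −0.07).

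Ferritin, Hmox1 and Blvrb are known targets of the stress regulator NRF2 and the heme sensor BACH1, so the list of that axis was set beside them. Of 15 tested genes, 2 were higher and 2 lower, 26.7% called against 19.1% of all tested genes. Prdx1, a peroxidase, rose from 115 ± 9.79 to 412 ± 74.3 CPM (log2 1.84, adjusted p = 9.9e-04), and Gpx4, the lipid peroxidase that opposes ferroptosis, rose from 126 ± 53.8 to 347 ± 69.0 CPM (log2 1.47, adjusted p = 0.012). Gclc, the catalytic subunit for glutathione synthesis and a classical NRF2 target, fell from 23.0 ± 4.41 to 2.90 ± 1.66 CPM (log2 −2.97, adjusted p = 0.0016). Mafk, a DNA-binding partner of both regulators, fell from 41.1 ± 3.47 to 18.7 ± 3.54 CPM (log2 −1.14, adjusted p = 0.020). The calls of Gpx4 and Mafk were lost without WT replicate 2 or IRF8KO replicate 1 or 3, with adjusted p of 0.0531 to 0.0804 and 0.0774 to 0.114. The other 11 were not called, among them Nfe2l2 (log2 −0.91, adjusted p = 0.107) and Bach1 (log2 −0.66, adjusted p = 0.427). Of the NRF2 targets not called, Srxn1 and Slc7a11 had log2 fold changes of 1.24 (SE 0.78) and 2.11 (SE 1.23; adjusted p = 0.291 and 0.253). Gclm and Txnrd1 had −0.74 and −0.68 (adjusted p = 0.380 and 0.238). Slc7a11 was near the floor, with 5, 1 and 0 counts in WT and 4, 20 and 13 in IRF8KO replicates 1, 2 and 3. Srxn1 had 41, 5 and 49 counts in WT. The part of these regulators in the ferritin and Blvrb values was not tested. Nqo1 and Spic were too low to be tested.

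**Figure D4:**
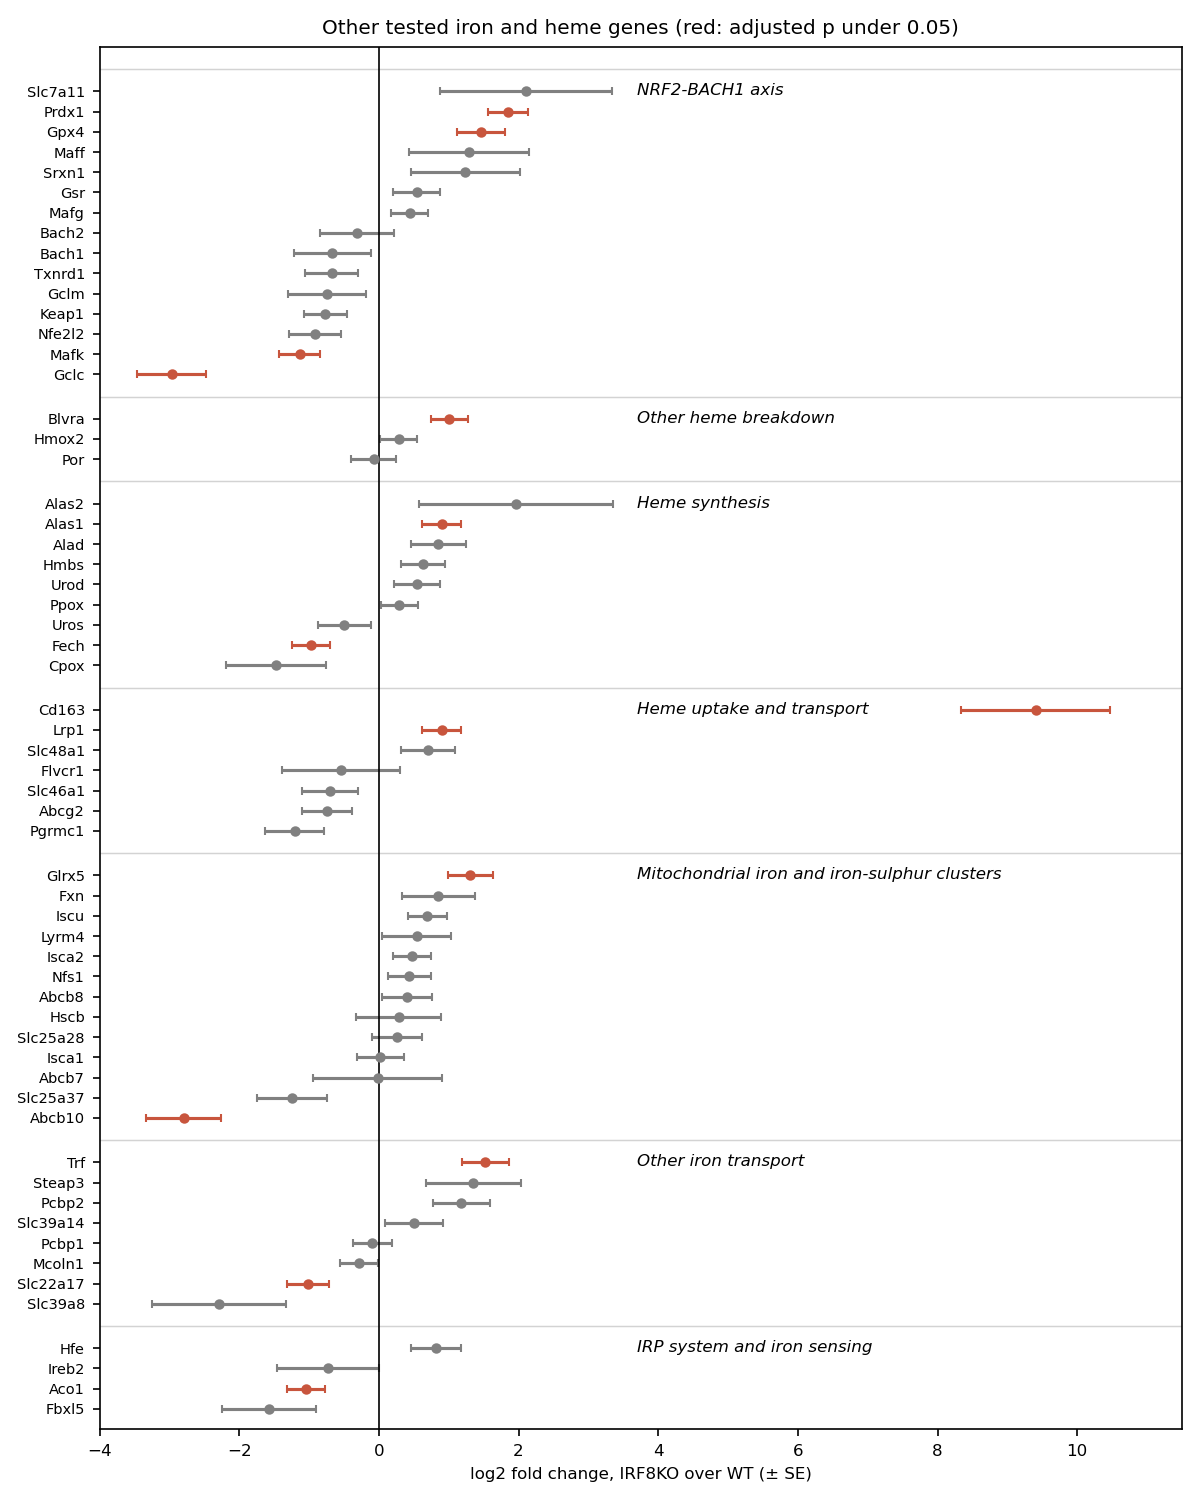
Log2 fold change, IRF8KO over WT, of the 59 tested genes of the 7 other iron and heme lists, with bars of 1 SE from the edgeR fit, grouped by list and ordered within it, red where the adjusted p was under 0.05. Red points lie on both sides of 0, 8 to the right and 6 to the left; the fitted value of Cd163 depends on its 0 counts in WT and is no measure of size.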

How the data were processed

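RNA of 6 libraries was analysed. The authors deposited, per library, raw counts per gene in STAR's layout, with 1 column that ignores strand and 2 by strand. The submitters' processing notes name STAR 2.5.2b, Picard 2.17.11, featureCounts and the build mm10, with no role given; the annotation release is not given in the sources used here. The column without strand was used, since the kit does not mark strand, and the 4 summary lines were left out. Identifiers were matched to GENCODE M21 (GRCm38), 49326 of 49585. Reads shared with overlapping genes (8.20% to 10.8%) or copies were not counted, which lowers genes such as Ftl1.

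For the test, edgeR 4.0.16 (R 4.3.3) was run on the counts with filterByExpr at a minimum count of 10, TMM scaling, the quasi-likelihood F test and genotype as the only term. A call needs p under 0.05 after Benjamini-Hochberg adjustment across the genes tested. The labels describe isolation brain by brain but do not identify the animals, so p-values measure the spread between these samples. SE were derived from the F statistic. The genes and lists were chosen with earlier results of these data known. From each other list the text names the 2 most abundant genes and up to 4 called ones whose mean reaches 10 CPM, plus Irf8 and, picked after their values were seen, Cd163, Nfe2l2, Bach1, Srxn1, Slc7a11, Gclm, Txnrd1, Atrx, Alas2, Nqo1 and Spic. Alternatives changed the scaling, filter, test (DESeq2 1.42.0, limma 3.58.1), strand column, replicate block and libraries.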

Additional observations from a re-analysis of the deposited data

How the results depend on the processing

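Over 17 alternatives to the fit, 16 of them fixed at the start, the count of called genes among the 10 was 3 to 6, and it was 3 to 5 without 1 library. Over all genes, leaving out 1 library gave 910 to 4003 calls against 2109, and for the other iron and heme genes 4 to 30 against 14. Leaving out WT replicate 3 and IRF8KO replicate 2 together, chosen after seeing the data, gave 5228 and 30. Scaling by library size alone called 6 of the 10 genes, 4 higher and 2 lower, and over all genes 651 higher and 1908 lower, 25.4% higher against 50.5%. Library size without Apoe gave 59.5%. Under library size alone, signs turned for Slc11a1 (−0.32), Ppox (−0.22) and Hmox2 (−0.20). Slc11a1 also turned without WT replicate 1 (−0.10), WT replicate 2 (−0.05) and IRF8KO replicate 1 (−0.07), and Tfrc without WT replicate 1 (0.18), WT replicate 2 (0.01), IRF8KO replicate 1 (0.12) and IRF8KO replicate 2 (0.10). Pcbp1 turned without WT replicate 1 (0.11) and Por without WT replicate 3 (0.34). Without both libraries named above, Irf8 (0.046), Mcoln1 (0.065), Slc46a1 (0.10) and Por (0.46) turned. None of these values was called, and the cause was not tested. Over single libraries left out, Tfrc reached −0.77 without IRF8KO replicate 3 and Slc11a1 reached 0.62 without WT replicate 3. The log2 difference of the Fth1 to Ftl1 ratio was 0.54, and 0.39 and 0.50 in the stranded columns; that of Slc40a1 to Tfrc was −0.12, and 0.26 and −0.74.

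The labels number the replicates of both groups but do not state that equal numbers pair, and the numbers were not taken as pairs. Correlations over genes between deviations from the group mean were −0.26, 0.33 and 0.11 for same-numbered libraries. Between libraries of different numbers they ran from −0.42 to 0.35. With a replicate block, 2353 genes, 4 of the 10 and 14 of the other iron genes were called, the latter 6 higher and 8 lower in place of 8 and 6. Lrp1 and Alas1 lost their calls (adjusted p = 0.0926 and 0.0648). Depth limits Tfrc, Slc7a11 and, in WT, Cp.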
